A study of Mus musculus with 3 samples.

Results

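The subject is 10 genes for inhibitory receptors of myeloid cells, taken as a named list (Sirpa, Pirb, Lilrb4a, Cd300a, Cd300lf, Siglec1, Siglece, Cd33, Lair1 and Cd200r1) from the 55536 genes of the annotation. All 10 were present in the gene tables and in both transcript tables. The libraries are polyA plus RNA-seq of primary macrophages grown from bone marrow of C57BL/6J mice, labelled as 0 min of stimulation with 100 ng/ml lipid A, the membrane-anchoring part of lipopolysaccharide. There were 3 libraries, numbered as biological replicates 1 to 3, and they form 1 group with no mutant, other dose or other time beside it. All carry the same donor record, and sex and age were not collected, so the spread given below is the spread between these samples, which may be technical. Levels are in TPM (transcripts of a gene among a fixed total of transcripts), which are corrected for transcript length and can be set side by side between genes.

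Receptors of this kind set a brake on phagocytosis and on signals from activating receptors. Most carry a short sequence around a tyrosine in the part that reaches into the cell, the immunoreceptor tyrosine-based inhibitory motif (ITIM). Src-family kinases phosphorylate that tyrosine, and the phosphatases SHP-1, SHP-2 and SHIP-1 then bind it. Their ligands are mostly signs of self: CD47 for Sirpa, MHC class I for Pirb, sialic acids for the Siglecs, collagens and C1q for Lair1, CD200 for Cd200r1, and membrane phospholipids for the CD300 receptors.

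The coding sequences show which receptors carry a match to that motif, while binding of the phosphatases was not tested. An ITIM was searched as isoleucine, leucine, valine or serine placed 2 residues before a tyrosine and isoleucine, leucine or valine placed 3 residues after it, in the tail behind the last hydrophobic stretch. The related immunoreceptor tyrosine-based switch motif (ITSM) was searched with threonine in the first place and isoleucine or valine in the last. The longest tail-bearing transcripts held 3 ITIMs and 1 ITSM in Sirpa, 3 ITIMs in Pirb, 2 in each of Lilrb4a, Cd300a and Lair1, 2 with 1 ITSM in Cd300lf, and 1 with 1 ITSM in Siglece. No match was found in Cd200r1, Cd33 or Siglec1. The tail of Cd200r1 held instead an asparagine-proline-x-tyrosine motif, which binds the adaptors Dok1 and Dok2. The tail of Cd33-203 was 62 residues long with 1 tyrosine, and that of Siglec1-201 was 32 residues long with none. Siglec1 thus counts as inhibitory here only by its place in the list. The coding strand around 1 site of each receptor with a tail tyrosine reads as follows, 5′ to 3′, with the codons of the motif in capitals (for Cd33 only the codon of its tyrosine).
Sirpa, ITIM: aacgacATCACATACGCAGACCTGaatctg
Pirb, ITIM: caggatGTGACCTATGCCCAGCTGtgcagc
Lilrb4a, ITIM: caggatGTAACCTATGCCCAGTTGtgcatc
Cd300a, ITIM: gaagagCTTCACTATTCATCCGTGgcattc
Cd300lf, ITIM: ggtgatCTCTGTTATGCAGACCTGtccctg
Lair1, ITIM: caagagGTGACGTATATCCAGCTGgaccat
Siglece, ITIM: gaagagATACATTATGCGACCCTCagcttt
Siglece, ITSM: actaccACGGAGTACTCAGAGATAaagttt
Cd33, last tyrosine: aagcctcaggagTACtcagagatc
Cd200r1, phosphotyrosine-binding motif: aagagcAATCCACTCTATgatact
These were read from the GENCODE M21 transcripts on mm10. Sirpa's site lies at chr2:129629948-129629977 on the plus strand, Pirb's at chr7:3712780-3712809 on the minus strand and Lilrb4a's at chr10:51496188-51496217 on the plus strand. Cd300a's lies at chr11:114901141-114901170 (plus), Cd300lf's at chr11:115117642-115117671 (minus) and Lair1's at chr7:4009784-4009813 (minus). Those of Siglece lie at chr7:43651579-43651608 and chr7:43651510-43651539 (minus), that of Cd33 at chr7:43528865-43528888 (minus) and that of Cd200r1 at chr16:44794233-44794256 (plus). The motifs shown for Pirb and Lilrb4a encode the same 6 amino acids and match at 16 of 18 bases. Both receptors belong to the leukocyte immunoglobulin-like receptor family, and their whole coding sequences were 74.8% identical over 1004 aligned bases.

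The 3 libraries had totals of 27946070 (replicate 1), 29779410 (replicate 2) and 53447437 (replicate 3) expected counts. A count of 3 corresponds to 0.107, 0.101 and 0.0561 CPM (counts scaled by the library total), for counting error only. All 7 macrophage markers looked at (Adgre1, Csf1r, Cd68, Itgam, Mertk, Fcgr1 and Tyrobp) reached 1 TPM in all 3 libraries. Of 8 neutrophil markers 3 were at that level (S100a8, S100a9 and Ngp) and Ly6g was at 0 TPM in every library. The summed level of the neutrophil markers was 168, 34.9 and 327 TPM in replicates 1, 2 and 3. None of the 7 T and NK cell markers reached 1 TPM in any library. Of 5 B cell markers 2 did so in every library, Ighm with 1.16, 27.9 and 15.7 TPM and Cd79b with 1.48, 2.42 and 3.02 TPM, while Pax5 was at 0.02 TPM or less. Of 5 monocyte markers 2 were at that level (Ly6c2 and Ccr2), and none of the 6 dendritic cell and 6 mast cell, basophil and eosinophil markers was in all 3 libraries. All 18 interferon-stimulated genes of a fixed list were highest in replicate 2, where they summed to 5440 TPM, against 2091 and 1371 TPM in replicates 1 and 3.

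Sirpa, which binds CD47 and restrains phagocytosis, was the most abundant of the 10 mRNAs, and Siglece the least. Sirpa stood at 1324, 1159 and 1611 TPM in replicates 1, 2 and 3, with a mean of 1364 ± 229 TPM (SD, n = 3). It ranked 70th of all annotated genes by mean level, and it made up 60.8%, 46.7% and 48.6% of the summed TPM of the 10 receptors. The gene lies at chr2:129592835-129632228 (plus strand). Of the members 9 of 10 reached 1 TPM in all 3 libraries, beside 19% of all annotated genes. The members were listed as receptors of these cells with earlier results known, so the count describes them and is no test. The median of the members' mean levels was 103 TPM, and the median over the 10548 genes that reached 1 TPM in all 3 libraries was 18.6 TPM.

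**Figure D1:**
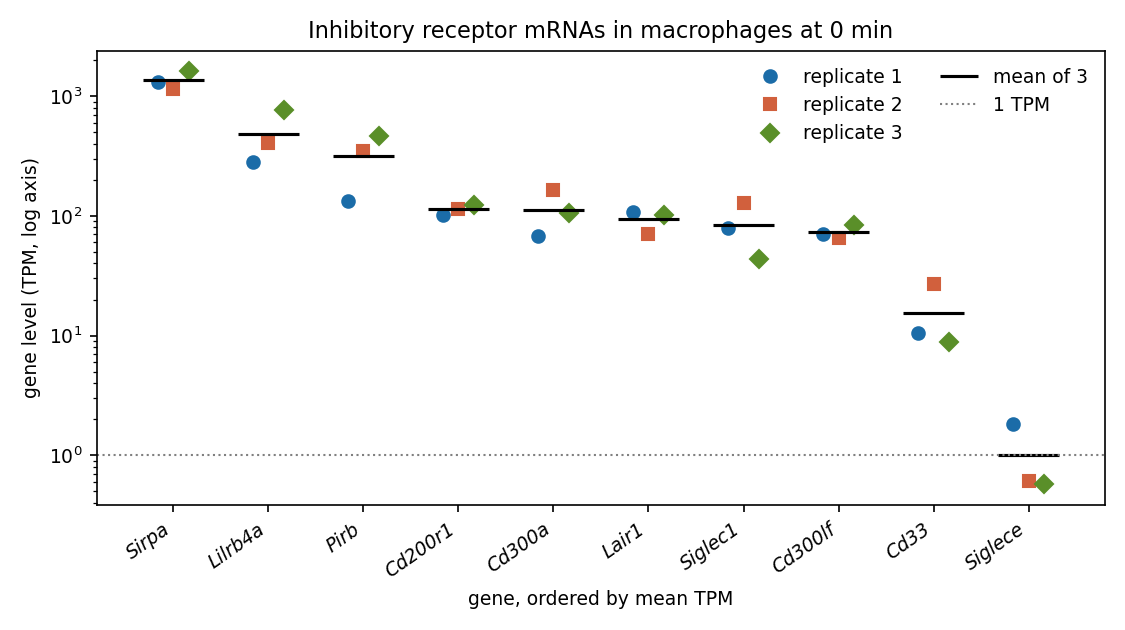
Gene level in TPM (log axis) of the 10 receptors in each of the 3 libraries, ordered by the mean, which is the black line. Sirpa lies at 1159 TPM or more in every library, 5 genes lie close together near 100 TPM, and Siglece lies around the dotted line at 1 TPM.

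The paired immunoglobulin-like and LILR family members came next. Lilrb4a, also called gp49B, had 282, 407 and 772 TPM in replicates 1, 2 and 3 (487 ± 255, SD, n = 3). Pirb, which binds MHC class I, had 132.5, 346 and 465 TPM (315 ± 168). In both, replicate 3 was highest and replicate 1 lowest, and their ranges overlapped, although Lilrb4a was above Pirb within each of the 3 libraries. Lilrb4a lies at chr10:51490956-51496611 (plus strand) and Pirb at chr7:3711409-3720391 (minus strand).

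Next came a middle group of 5 receptors whose neighbours overlapped. Cd200r1, the receptor for CD200, had 102, 115 and 122 TPM in replicates 1, 2 and 3 (113 ± 10.1, SD, n = 3). Cd300a, which binds phosphatidylserine and phosphatidylethanolamine on dying cells, had 67.5, 166 and 106 TPM (113 ± 49.7). Lair1, the collagen receptor, had 108, 70.2 and 102 TPM (93.6 ± 20.5). The libraries of neighbours in this order overlapped, as for Cd300a and Lair1. Siglec1, also called sialoadhesin or CD169, had 79.5, 128 and 43.9 TPM (83.7 ± 42.2). Cd300lf, a receptor for phosphatidylserine and ceramide and the entry receptor of murine norovirus, had 70.8, 64.8 and 84.0 TPM (73.2 ± 9.86). Siglec1 varied 2.92-fold between its highest and lowest library and Cd300lf 1.30-fold, on the TPM scale.

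The sialic acid receptors Cd33 and Siglece were lowest. Cd33 had 10.4, 27.1 and 8.90 TPM in replicates 1, 2 and 3 (15.5 ± 10.1, SD, n = 3), below every library of Cd300lf. Siglece had 1.84, 0.61 and 0.57 TPM (1.01 ± 0.722), from 43, 19 and 36 expected counts, below every library of Cd33. All 3 Siglece counts lie above the floor of 3 counts, and it reached 1 TPM only in replicate 1. Of the 9 neighbouring pairs in the order, 4 were apart, meaning that the lowest library of the higher gene was above the highest library of the lower gene. These were Sirpa over Lilrb4a, Pirb over Cd200r1, Cd300lf over Cd33 and Cd33 over Siglece. Over all 45 pairs of members, 34 were apart by the same measure. This order uses gene totals. By protein-coding transcripts alone, Pirb was below Cd200r1 in each library of both transcript tables.

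The remaining members have these positions on mm10. On chromosome 7, minus strand, lie Lair1 at chr7:4003402-4063204, Cd33 at chr7:43524216-43544428 and Siglece at chr7:43651070-43660161. Siglec1 lies at chr2:131069220-131086765 (minus strand). Cd300a at chr11:114890041-114904654 (plus) and Cd300lf at chr11:115116214-115133992 (minus) belong to the same gene cluster, and Cd200r1 lies at chr16:44765736-44794978 (plus). Rab37, a gene on the other strand, overlaps Cd300lf and had 0.50, 0.36 and 0.81 TPM. Whether the libraries keep strand is not given in the sources used here.

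How much each receptor varied between replicates was compared on CPM scaled by the trimmed mean of M-values (TMM), because TPM moved as a whole. Against the mean of the other 2 libraries, the median tested gene differed by 0.10, 0.12 and -0.23 on the log2(TPM + 1) scale in replicates 1, 2 and 3, and by at most 0.0082 on the TMM scale. Pirb had the widest range, with 246, 630 and 1045 CPM in replicates 1, 2 and 3, a ratio of highest to lowest of 4.25. Cd300a followed at 2.71-fold, Cd33 at 2.5, Siglece at 2.42, Lair1 at 2.30, Siglec1 at 2.29 and Lilrb4a at 2.14. Sirpa at 1.55-fold, Cd200r1 at 1.5 and Cd300lf at 1.43 stayed within 2-fold. Thus 7 of 10 members passed 2-fold, beside 36.9% of the 11886 genes tested, and the median ratio was 2.30 over the members and 1.73 over the tested genes. One of the 7 is Lilrb4a, and with Lilrb4a and Gm49339 (a gene that encodes the same protein) summed, that range was 1.30-fold and the count 6 of 10. That sum is of gene totals. Transcripts of both genes with the ITIM tail ranged over 2-fold on the TPM scale in both transcript tables (values below). The count over the gene table fell when any library was left out: it was 2 without replicate 1, 4 without replicate 2 and 4 without replicate 3, with 19.6%, 21.9% and 19.9% of tested genes past 2-fold in those pairs.

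**Figure D2:**
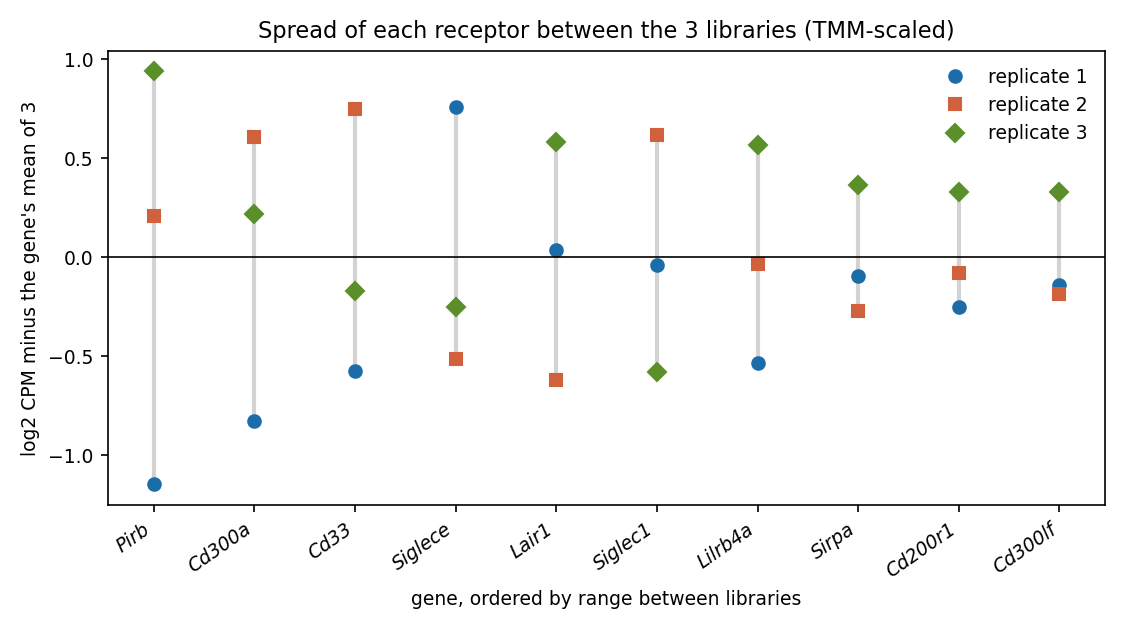
TMM-scaled log2 CPM of each receptor minus its mean over the 3 libraries, ordered by the range, with 1 symbol per replicate. Pirb spans 4.25-fold, with replicate 1 lowest and replicate 3 highest, while Cd33, Cd300a and Siglec1 are highest in replicate 2.

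None of these ranges passed a test of variability. With edgeR's quasi-likelihood dispersion set against its prior, 0 of 10 members were more variable after Benjamini-Hochberg adjustment, with adjusted p between 0.970 and 0.997. Of all 11886 tested genes 0% were called, 545 had an unadjusted p under 0.05, and none of those was a member. The smallest unadjusted p among the members was 0.081, for Pirb. DESeq2 marked 9 genes as dispersion outliers and none of them was a member. The biological coefficient of variation was 0.398. A value that missed the threshold does not show that a receptor was the same in all cultures.

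The receptors did not move together between libraries. On TMM-scaled CPM, 6 were highest in replicate 3 (Sirpa, Lilrb4a, Pirb, Cd200r1, Lair1 and Cd300lf), 3 in replicate 2 (Cd300a, Siglec1 and Cd33) and 1 in replicate 1 (Siglece). Among all tested genes 33.0% were highest in replicate 3, 32.3% in replicate 2 and 34.7% in replicate 1. Lair1 changes sides with the scale: it was 218 CPM in replicate 3 and 149 CPM in replicate 1, but 102 TPM in replicate 3 and 108 TPM in replicate 1. Siglec1, whose gene is known to be induced by interferon, had 310, 490 and 214 CPM in replicates 1, 2 and 3, and replicate 2 was also where the interferon-stimulated genes were highest. The most abundant of these were Bst2, Ifit3 and Ifit2, at 731, 905 and 107 TPM, at 168, 642 and 187 TPM, and at 73.1, 648 and 210 TPM. The neutrophil markers S100a8 and S100a9 were highest in replicate 3 with 83.0 and 183 TPM and lowest in replicate 2 with 12.3 and 20.1 TPM. The part of either group in the levels of the receptors was not tested, and in bulk RNA fewer cells of a type and less RNA per cell cannot be told apart.

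As the member of widest range, Pirb was set beside all other 11885 tested genes by the distance between their 3 centred log2 CPM values. The nearest were F10, Ccdc112, Dio2, Slamf7 and 9930111J21Rik2, at distances of 0.093, 0.13, 0.13, 0.14 and 0.14 log2 units. Slamf7, another receptor of leukocytes, had 114, 255 and 440 CPM in replicates 1, 2 and 3. Of the 11885 genes, 27 lay within 0.25 log2 units of Pirb and 1 within 0.1. Over only 3 libraries such likeness is a description and no sign of shared control.

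Lilrb4a needs its neighbours to be read. A second gene of the annotation, Gm49339 (chr10:51480612-51496613, plus strand), overlaps it on the same strand and was named here after its values were seen. Its transcript Gm49339-203 starts with the first coding exon of the neighbouring gene Lilr4b (gp49A, which lacks an inhibitory tail) and continues into Lilrb4a, with 8 of 9 coding exons identical to those of Lilrb4a-201. The coding sequences of Lilrb4a-201 and Gm49339-203 were 100% identical over all 1005 bases, so both encode the same protein of 335 residues with the 2 ITIMs. Gm49339 had 816, 434 and 344 TPM in replicates 1, 2 and 3. Lilrb4a and Gm49339 together had 1098, 841 and 1116 TPM (1018 ± 153, SD, n = 3), a range of 1.33-fold, where Lilrb4a alone ranged 2.74-fold. With that sum the gene total is 2.09 times that of Lilrb4a alone, and its lowest library no longer falls in replicate 1 but in replicate 2. These totals include transcripts without the ITIM tail, and the transcripts with that tail ranged more widely, as given next.

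The transcript tables show where the reads went. The full-length Lilrb4a-201 was listed at 0 TPM in all 3 libraries and by both programs. The shorter coding transcript Lilrb4a-202 was listed at 0, 0.47 and 543 TPM in replicates 1, 2 and 3 in the RSEM-format table. Gm49339-203 was listed at 801, 422 and 327 TPM. Transcripts that encode the ITIM tail summed to 809, 429 and 882 TPM over the genes Lilrb4a and Gm49339, and to 0, 0.47 and 543 TPM over Lilrb4a alone. In the kallisto-format table the sums were 570, 294 and 722 TPM over both genes and 1.97, 0.679 and 329 TPM over Lilrb4a alone. What Lilrb4a was given in replicates 1 and 2 was thus almost all in other transcripts, of which an intron-retaining form held the most, with 26.5% and 40.1% of the gene's TPM. Over both genes, the sums with the ITIM tail ranged over 2-fold between libraries in both tables, unlike the gene totals.

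**Figure D3:**
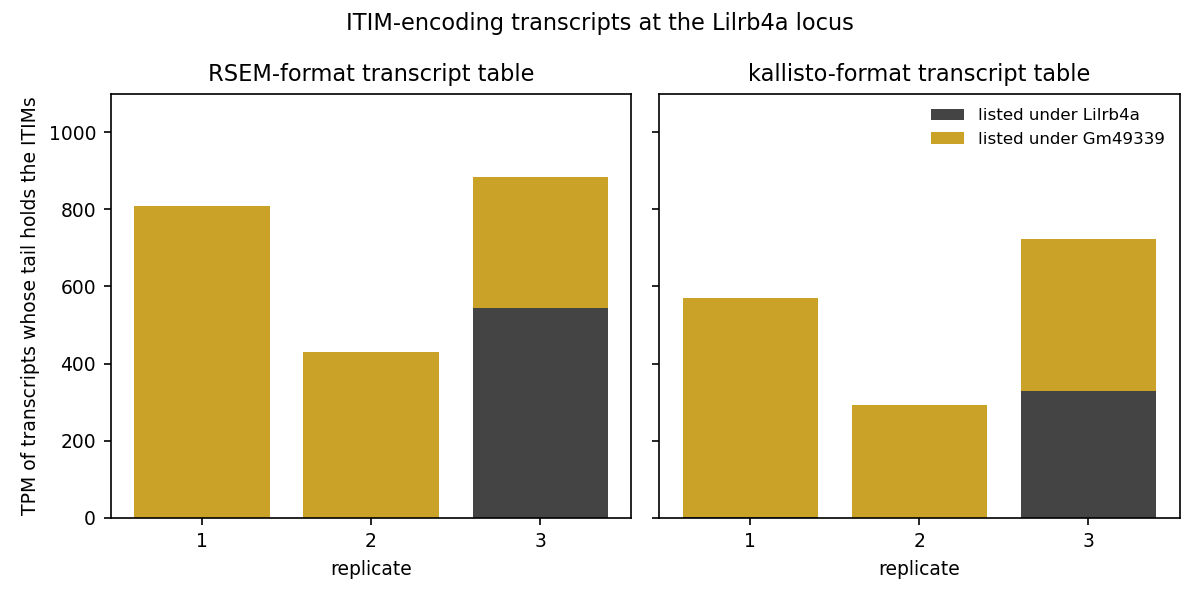
Summed TPM of transcripts whose tail holds the ITIMs at the Lilrb4a locus, by library, in the RSEM-format table (left) and the kallisto-format table (right), with dark bars for transcripts listed under Lilrb4a and yellow ones for those listed under Gm49339. In replicates 1 and 2 nearly the whole bar is listed under Gm49339, and in replicate 3 the Lilrb4a part is 543 TPM on the left and 329 TPM on the right.

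Shared sequence sets the limit here and for Pirb. Of the 31-base stretches in Lilrb4a transcripts 56.1% also occur in another gene, 39.1% in Lilr4b and 34.95% in Gm49339. For Pirb 43.6% occur elsewhere, 23.7% in Gm14548, 23.1% in Lilra6 and 23.1% in Pira2, of which Pira2 is an activating paired receptor. Among the other 8 members the shared part ran from 0.039% for Sirpa to 8.20% for Cd300a. Levels of Lilrb4a and Pirb are therefore uncertain where the counting split reads between copies. The coding sequence of Lilr4b was 96.0% identical to that of Lilrb4a over the 907 bases that align, but its tail held no ITIM. That of Pira2 was 95.4% identical to Pirb over 2039 bases, and its tail was 10 residues long with no tyrosine.

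In gene totals, several relatives were as high as the inhibitory receptors. Tails were searched in Lilr4b, Pira2, Cd300ld3, Cd200r4 and Sirpb1b, and none of them held an ITIM. The tails of the other relatives below were not searched. Activating receptors of these families have short tails and signal through the adaptors Tyrobp (DAP12) or Fcer1g (the Fc receptor gamma chain). Lilr4b had 742, 527 and 954 TPM in replicates 1, 2 and 3, so Lilrb4a alone was at 0.380, 0.773 and 0.809 of its level. The direction turns with the sum of Lilrb4a and Gm49339, which was at 1.48, 1.597 and 1.17 times the level of Lilr4b. These ratios use gene totals, and much of Lilr4b was not in coding transcripts. In the RSEM-format table its coding transcripts Lilr4b-211 and Lilr4b-201 had 108, 58.1 and 204 TPM and 119, 78.2 and 48.0 TPM. Transcripts of Lilrb4a and Gm49339 with the ITIM tail summed to 809, 429 and 882 TPM there. As a gene total Pirb was at 1.57, 2.21 and 2.86 times the level of Pira2, which had 84.2, 157 and 163 TPM. The direction turns for coding transcripts. Pirb-201, the only coding transcript of Pirb, had 46.5, 101 and 93.3 TPM in the RSEM-format table. It was below Pira2, whose transcripts are all coding, in each library of both transcript tables. Beside the 2 inhibitory CD300 members the cluster held Cd300ld3 with 548, 289 and 690 TPM, Cd300c2 with 256, 282 and 244 TPM and Cd300lb with 155, 126 and 115 TPM. Cd300ld had 113, 55.2 and 187 TPM, and Cd300ld4 and Cd300ld5 had means of 28.5 and 20.4 TPM. Cd200r4, an activating relative of Cd200r1, had 28.8, 88.4 and 45.1 TPM, so Cd200r1 was at 3.55, 1.30 and 2.71 times its level. Of the 26 matched paralogs, 13 reached 1 TPM in all 3 libraries and 8 were under 1 TPM in every library. Between libraries, 12 of the 17 tested ones passed 2-fold on TMM-scaled CPM, beside 36.9% of all tested genes. Cd22, another Siglec, had a mean of 17.8 TPM, and it is not counted here as a relative without an inhibitory tail. Lilra6, Sirpb1c, Sirpb1b, Siglech, Sirpb1a, Cd300ld2, Mag and Cd300e reached 1 TPM in at least 1 library, with means between 0.603 and 3.87 TPM. The adaptors were among the highest mRNAs, with Tyrobp at 2984, 3631 and 1785 TPM and Fcer1g at 1710, 2222 and 1131 TPM, both lowest in replicate 3 on the TPM and CPM scales. Hcst (DAP10) had 31.8, 28.5 and 6.43 TPM.

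For the other receptors the question was which transcripts made up the level, since only coding transcripts with the tail can give an inhibitory receptor. In the RSEM-format table protein-coding transcripts made up 85.5% to 89.1% of Sirpa, 82.5% to 92.6% of Cd300a, 78.3% to 85.6% of Cd300lf and 92.6% to 96.6% of Cd200r1. The median over protein-coding genes that reached 1 TPM in all 3 libraries was 96.0%. Siglec1 was coding throughout and 97.1% ± 2.17 of it (SD, n = 3) was Siglec1-201. Transcripts that encode the 3 ITIMs made up 85.5%, 85.4% and 89.0% of Sirpa in replicates 1, 2 and 3. The most abundant of them were Sirpa-204 and Sirpa-214. Sirpa-204 held 35.8% ± 9.33 of the gene and Sirpa-214 28.0% ± 12.9. Both programs put Sirpa-214 above Sirpa-204 in replicate 2 and Sirpa-204 above Sirpa-214 in replicate 3. In replicate 1 they disagreed, with 27.2% for Sirpa-214 and 37.8% for Sirpa-204 in the RSEM-format table, and 34.7% and 21.2% in the kallisto-format table. Sirpa-207, a noncoding processed transcript, held 11.5% ± 1.53, and Sirpa-201 and Sirpa-209, both coding, held 9.64% and 9.83%.

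**Figure D4:**
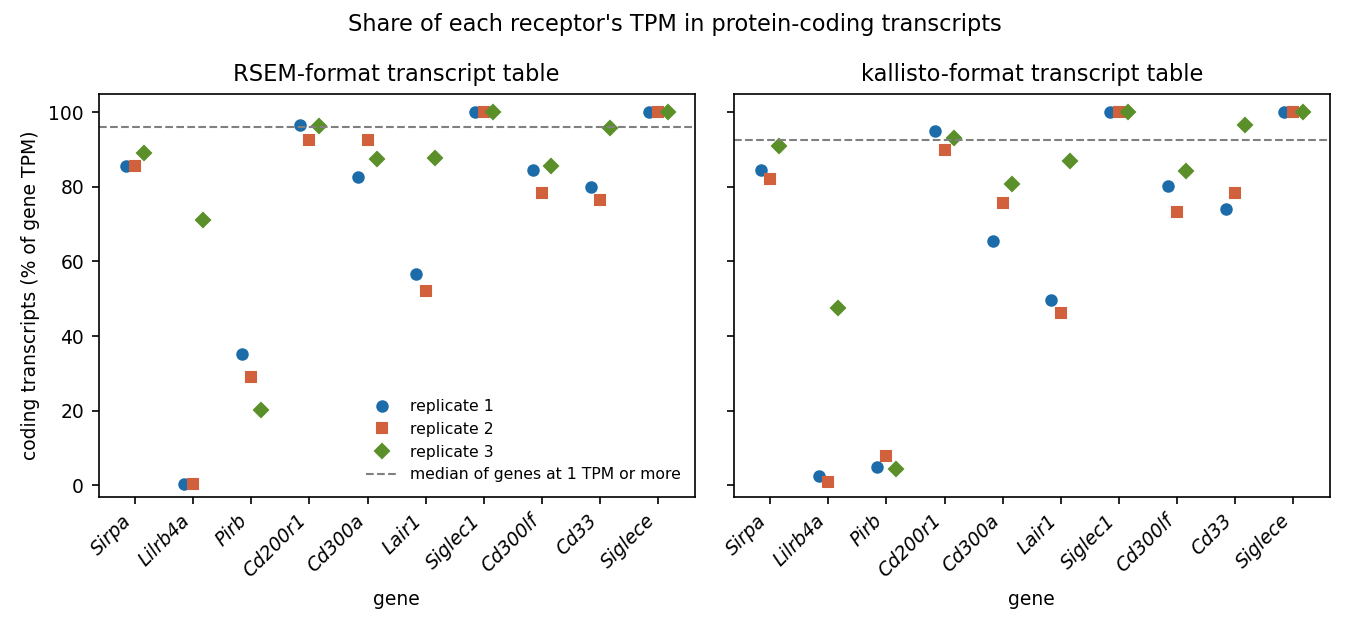
Share of each receptor's TPM in protein-coding transcripts, in percent, for 3 libraries in the RSEM-format table (left) and the kallisto-format table (right), with the dashed line at the median of protein-coding genes that reached 1 TPM in all 3 libraries. Pirb is at most 35.1% in every library of both tables, Lilrb4a is near 0% in replicates 1 and 2, and Lair1 is higher in replicate 3 than in replicates 1 and 2.

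Pirb was the 1 member whose coding transcripts made up less than 50% of the gene in every library of the RSEM-format table, beside 3.39% of 9861 genes. In the kallisto-format table Pirb and Lilrb4a were the 2 such members, beside 5.05% of 9853 genes. Without replicate 3, Lilrb4a joins Pirb in the RSEM-format table as well. Pirb-201, its only coding transcript and the one with the 3 ITIMs, held 35.1%, 29.1% and 20.1% in replicates 1, 2 and 3 by RSEM and 4.79%, 7.74% and 4.34% by kallisto. That is 46.5, 101 and 93.3 TPM in the RSEM-format table and 5.26, 21.5 and 20.1 TPM in the kallisto-format table. Most of the rest was in retained-intron transcripts, Pirb-202 with 32.6%, 38.3% and 66.3% and Pirb-203 with 25.9%, 21.5% and 3.22% by RSEM. The gene sum of Pirb differed by less than 1.5-fold between the programs in each library, whereas the level of its coding transcript differed by more than that in every library.

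Lair1 was mixed in another way. Its coding share was 56.8%, 52.0% and 87.7% in replicates 1, 2 and 3 by RSEM and 49.6%, 46.2% and 87.0% by kallisto. Lair1-203, which encodes 263 residues with 2 ITIMs, held 23.4%, 21.2% and 50.2%. Lair1-202, which encodes 246 residues with the same 2 ITIMs, held 23.6%, 20.3% and 27.7%. The noncoding Lair1-210 held 19.3%, 20.9% and 0%, and a transcript annotated as a target of nonsense-mediated decay held 15.1%, 18.3% and 7.5%. Counted by transcripts with ITIMs, Lair1 stood at 59.3, 35.7 and 88.1 TPM, so replicate 3 was its highest library on this measure.

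The lipid-binding CD300 pair was simpler. Cd300a-202, with 2 ITIMs, led in every library of both tables and held 75.4%, 83.8% and 83.8% of Cd300a in replicates 1, 2 and 3 by RSEM. The noncoding Cd300a-203 held 12.5% ± 5.05 by RSEM and 26.1% ± 7.70 by kallisto (SD, n = 3). Cd300lf was divided among 3 coding transcripts with the same tail, Cd300lf-203 with 47.3% ± 0.462, Cd300lf-202 with 19.8% ± 4.72 and Cd300lf-201 with 15.8% ± 2.16. Between these members Cd300a was at 0.953, 2.56 and 1.26 times the level of Cd300lf in replicates 1, 2 and 3 in the gene table, and at 1.12, 2.84 and 1.45 times in the kallisto-format table. Cd300a was thus higher in replicates 2 and 3 in both, and in replicate 1 the tables differ in direction.

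Among the Siglecs, Cd33-203 held 73.7%, 71.0% and 94.3% of Cd33 in replicates 1, 2 and 3 by RSEM and 42.8%, 51.8% and 79.9% by kallisto. A noncoding transcript held 12.9% ± 9.60 by RSEM and 14.4% ± 11.9 by kallisto. Cd33-201, a coding transcript with no tail behind its last hydrophobic stretch, held 3.99% ± 2.68 by RSEM and 20.7% ± 5.25 by kallisto. Siglece-201, with its ITIM and ITSM, held 72.3%, 100% and 100%. Cd200r1-201, which carries the asparagine-proline-x-tyrosine motif, held 96.6%, 92.6% and 96.2%. Across all members, 9 of 10 had the same leading transcript in both tables, Sirpa being the exception, and 6 had the same leading transcript in every library of both.

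At the level of whole genes the programs differed less. Summed kallisto-format TPM were 0.810, 0.804 and 0.991 of the gene-table TPM in replicates 1, 2 and 3 at the median member, and 0.754, 0.760 and 0.960 at the median of the 10548 genes at 1 TPM or more. No member of the 9 at that level differed over 1.5-fold in the same direction in every library, beside 3.28% of those genes.

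Of 13 listed effectors that these receptors use 12 reached 1 TPM in all 3 libraries, with a median level of 43.6 TPM. Ptpn6, which encodes SHP-1, had 135, 182 and 191 TPM in replicates 1, 2 and 3, and Ptpn11, which encodes SHP-2, had 30.8, 24.8 and 25.2 TPM. Ptpn6 was 4.38, 7.34 and 7.56 times as abundant as Ptpn11. Inpp5d, which encodes SHIP-1, had 169, 157 and 121 TPM, and its relative Inppl1 (SHIP-2) had 48.7, 64.3 and 59.1 TPM. Grb2 was the highest effector at 196, 349 and 333 TPM and Sh2d1b1 the lowest at 0.71, 1.93 and 1.30 TPM. Csk, the kinase that holds Src kinases inactive, had 112, 135 and 104 TPM. For Cd200r1, which signals through Dok2 and RasGAP, Dok2 had 97.4, 21.8 and 25.8 TPM, Dok1 55.2, 54.7 and 20.9 TPM and Rasa1 44.5, 38.4 and 36.7 TPM (these 3 were chosen after their values were seen). Dok2, Dok1 and Rasa1 were each highest in replicate 1 on the TPM scale. Cd200r1 was lowest there, but it ranged only 1.19-fold between libraries on that scale, and a link was not tested.

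Of 10 Src- and Syk-family and related kinases 5 reached 1 TPM in all 3 libraries. Syk had 104, 182 and 207 TPM in replicates 1, 2 and 3, and Lyn had 160, 145 and 70.7 TPM. Lyn is a Src kinase known for ITIM phosphorylation in myeloid cells, and it was lowest in replicate 3 on the TPM and CPM scales. Btk averaged 57.2 TPM, Fyn 13.9 TPM and Src 1.79 TPM, and the lowest was the B cell kinase Blk with 0.04 TPM in replicate 3 and 0 in replicates 1 and 2.

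Ligands were spread over the whole range of levels, with 8 of 16 at 1 TPM or more in all 3 libraries. The MHC class I genes, ligands of Pirb, were among the highest: B2m had 6828, 10565 and 9619 TPM, H2-D1 2606, 4521 and 2062 TPM and H2-K1 1867, 3566 and 2032 TPM in replicates 1, 2 and 3. Cd47, the ligand of Sirpa, had 180, 249 and 150 TPM, so Sirpa was at 7.36, 4.65 and 10.7 times the level of its own ligand. C1qa, a subunit of the Lair1 ligand C1q, had 594, 438 and 167 TPM. Angptl2, another ligand of Pirb, averaged 16.1 TPM. Cd200 averaged 3.21 TPM, with Cd200r1 at 66.0, 43.6 and 22.4 times its level. Spn (CD43), a counter-receptor of Siglec1, averaged 1.66 TPM. Under 1 TPM in every library were 7 ligands, namely the 6 collagen genes listed and Sftpd, which was at 0. The remaining one, Fn1, had 3.03, 0.58 and 1.02 TPM (named after its values were seen).

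**Figure D5:**
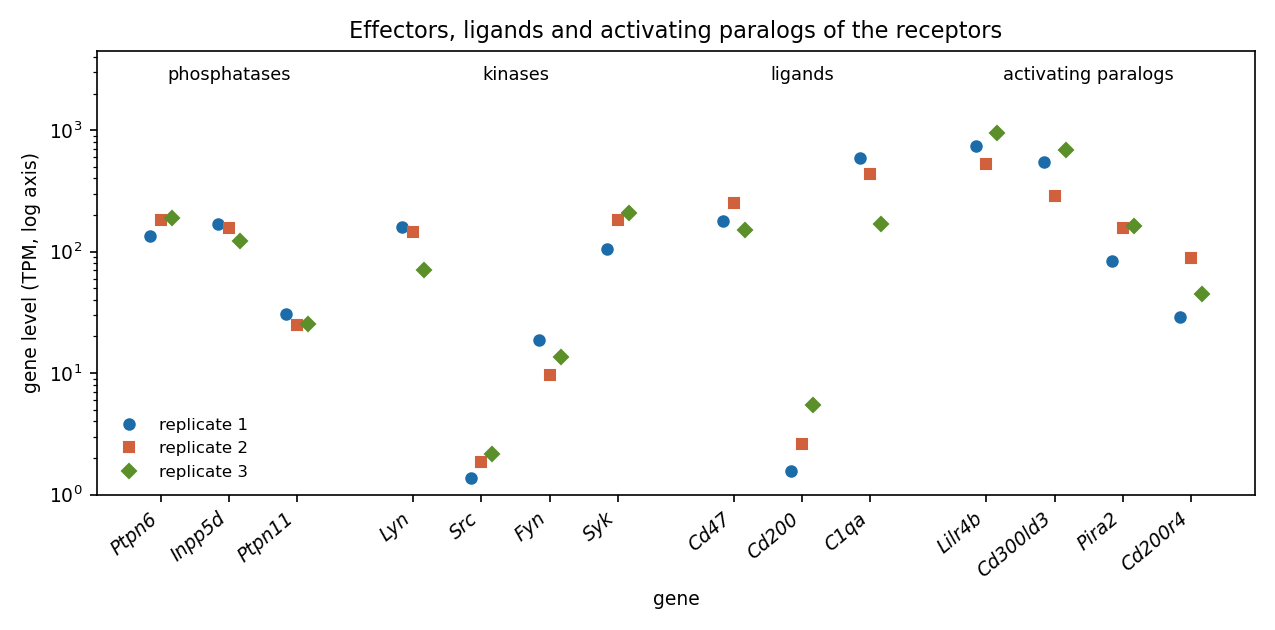
Gene level in TPM (log axis) of phosphatases, kinases, ligands and paralogs of the receptors in each of the 3 libraries. The group headed activating paralogs holds relatives in whose tails no ITIM was found, and their signalling was not tested. Ptpn6 and Inpp5d lie above Ptpn11 in every library, Cd200 lies between 1.55 and 5.46 TPM, and Lilr4b lies between 527 and 954 TPM.

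For 6 of the 10 members RefSeq gave a promoter window, 250 bases before to 50 after the gene start on GRCm38.p6 (Pirb, Lair1, Cd33, Siglece, Cd300a and Cd300lf). All were searched on both strands for GAGGAA, a purine-rich core of the kind bound by the myeloid factor PU.1. It occurred in all 6 windows, beside 28.3% of 32851 promoters. TATAAA, the core of the TATA box, occurred in 1 of the 6 (Cd300lf) and in 13.6% of all promoters. A motif of the interferon-response type, a pair of GAAA with 2 bases between them, was in 0 of the 6 and in 3.44% of all promoters. The window of Pirb, the member of widest range, at chr7:3720333-3720632 (minus strand), is shown with its 3 matches in capitals, GAGGAA on the gene's strand and TTCCTC where the match is on the other strand.
Pirb promoter: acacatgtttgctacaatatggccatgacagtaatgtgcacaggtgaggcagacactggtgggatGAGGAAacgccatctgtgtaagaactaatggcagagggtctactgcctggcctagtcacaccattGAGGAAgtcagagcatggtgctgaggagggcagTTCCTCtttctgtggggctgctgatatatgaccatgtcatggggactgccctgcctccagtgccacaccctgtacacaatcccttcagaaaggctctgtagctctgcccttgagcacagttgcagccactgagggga
Siglece, at a mean of 1.01 TPM, held 3 matches like Pirb, at 315 TPM. A relation between the counts of matches and the levels was not tested. A match is a description of the letters in the window, not a bound site.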

How the data were processed

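Per the labels, the 3 libraries are polyA plus RNA-seq on mm10. Per the file headers, the deposited gene and transcript tables in RSEM format hold expected counts, TPM, FPKM, posterior mean values and the percent of each gene's level per transcript, and a further deposited transcript table in kallisto format holds estimated counts and TPM. Per the deposited lists of source files, the annotation was GENCODE M21, the first tables came from transcriptome alignments and the last from read files. The sources used here give no aligner, versions or strand.

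Kallisto-format TPM were summed per gene, and transcript shares were computed from TPM. Rounded expected counts were filtered (filterByExpr), TMM-scaled and fitted in edgeR 4.0.16 with an intercept only. An upper-tail F test set each quasi-dispersion against its prior, adjusted over all 11886 tested genes at 0.05. DESeq2 1.42.0 was an alternative. Tails begin after the last window of 19 residues with mean Kyte-Doolittle hydropathy over 1.6. Coding sequences were aligned with Biopython 1.88.

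The members and lists were chosen with earlier results of these data known. Named were all members, the 3 highest genes and the lowest of each list, ligands, phosphatases and kinases at 1 TPM or more, paralogs at 1 TPM in any library and transcripts over 10% in both tables. Of 38 paralog symbols 12 were not matched in the annotation. A few listed genes are not reported here and were left out of their lists' counts.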

Additional observations from a re-analysis of the deposited data

How the results depend on the processing

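The median of the members' mean levels, 103 TPM, became 86.2 with summed kallisto-format TPM and 70.7 in FPKM, and ran from 96.0 to 106 when 1 replicate was left out. FPKM is another unit of the same tables, and kallisto-format TPM were lower for most genes. Sirpa, Lilrb4a and Pirb kept the top 3 places in that order, and Cd33 and Siglece last, under all of these. All of these settings use gene totals. By protein-coding transcripts in the RSEM-format table, Pirb had 46.5, 101 and 93.3 TPM in replicates 1, 2 and 3. Cd200r1 had 98.8, 106 and 118 TPM by that count, and Lilrb4a without Gm49339 had 1.21, 1.04 and 548 TPM. The count of members past 2-fold ran from 2 to 4 when 1 replicate was left out, which removes the widest pair for many genes, and was 5 on the log2(TPM + 1) scale. Members with under 50% of TPM in coding transcripts numbered 1, and 2 in the kallisto-format table, with 1 to 2 when 1 replicate was left out. This count and the sum of Lilrb4a with Gm49339 (1018 TPM on average) were chosen after seeing the data. The number at 1 TPM or more was 9, with 10 at 0.5 TPM and 8 at 10 TPM, and the number called more variable was 0 in every setting run. With other tables, units or genes summed, 7 of 31 values of single members' levels moved by 1 SD between replicates or more, as did 6 of 10 shares of leading transcripts in the kallisto-format table. Leaving out 1 of 3 replicates cannot move a mean that far. With Lilrb4a and Gm49339 summed as gene totals, also chosen after seeing the data, the count past 2-fold was 6. Their transcripts with the ITIM tail ranged over 2-fold on the TPM scale. No paired analysis was possible because the libraries form 1 group. Depth limits Siglece most, at 19 to 43 counts.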

Other observations

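Of 17 inhibitory receptors outside the 10 members that matched the annotation 11 reached 1 TPM in all 3 libraries. The median level of the 17 was 7.96 TPM, and that of the members was 103 TPM. These medians are no like comparison, because the 17 include receptors of T cells. The members, by contrast, were listed as receptors of these cells with earlier results known. The 3 highest were Fcgr2b, Vsir and Clec12a. Fcgr2b, the inhibitory Fc receptor for IgG, had 294, 712 and 544 TPM in replicates 1, 2 and 3, below Sirpa and above Pirb in each library. Vsir (VISTA) had 130, 236 and 322 TPM and Clec12a, an ITIM-bearing lectin, had 131, 148 and 282 TPM. The T cell checkpoint receptors Pdcd1 and Tigit were at 0 TPM in every library.

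Genes that make or remove the sialic acids read by Siglec1, Siglece and Cd33 had a median level of 11.0 TPM, and 12 of 14 reached 1 TPM in all 3 libraries. The sialidase Neu1 had 62.6, 83.3 and 56.1 TPM in replicates 1, 2 and 3, and Cmas and Nans, which act in the synthesis of activated sialic acid, had 43.2, 34.3 and 39.4 TPM and 40.4, 27.8 and 33.5 TPM. The lowest was the sialidase Neu3, with 0.88, 0.66 and 0.36 TPM. Of these 14 genes 2 passed 2-fold between libraries on TMM-scaled CPM, against 7 of the 10 receptors and 36.9% of tested genes.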
